A study of Saccharomyces cerevisiae with 2 samples.

Results

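Tandem gene pairs are neighbouring genes transcribed in the same direction, so that the end of the upstream gene adjoins the promoter of the downstream gene. In budding yeast the space between them is short and holds both the terminator of the upstream gene and the start of the downstream gene, whereas divergent neighbours share a promoter region and convergent neighbours share a termination region. Yeast chromatin is folded into small chromosome interaction domains of a few genes each, and H2A.Z is a histone variant found in the nucleosomes that flank promoters. Micro-C maps chromosome folding by digesting fixed chromatin with micrococcal nuclease and ligating the fragments, which reports contacts at the scale of nucleosomes.

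The study carried out Micro-C on a swr1Δ strain in the W303 background, grown in the rich medium YPD to mid-log phase and fixed with formaldehyde. This strain lacks Swr1, the catalytic subunit of SWR-C, which deposits H2A.Z. The sample labels name 2 swr1Δ libraries, of 8804603 and 7314801 read pairs at distances of up to 10000 bp, whereas the study's methods name more biological replicates than that. The authors deposited 1 compaction score per gene for swr1Δ, with no value per replicate, and wild-type cells were not analysed here. The scores below therefore describe levels in swr1Δ alone and cannot be read as an effect of losing Swr1.

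A pair was called tandem when both genes were scored, lay on the same chromosome arm with systematic numbers differing by 1, and both ended in W or both in C. For W pairs the left gene was taken as upstream and for C pairs the right gene, with the higher number on the left on a left arm. The rule found 1707 tandem pairs, 877 of them W pairs and 830 C pairs, among 3509 scored neighbouring pairs. The remaining pairs were 943 convergent and 859 divergent ones. Tandem pairs held 2747 of the 4619 scored genes with an identifier of the form used, and 667 of these genes stood in 2 pairs, once as the downstream and once as the upstream member. A further 119 scored rows had a suffix or named a noncoding RNA and did not enter. In the R64 gene table the same rule gave 2495 tandem pairs of protein-coding genes, of which 1639 (65.7%) had both members scored, and in all 1639 the left gene by number also started to the left. The other 68 scored pairs had a member that the gene table does not list. No low-value filter was applied, so every scored pair enters each count unless a length or position was needed.

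How the score is computed and its log base are not given in the sources used here. Its name, and the study's use of compaction scores for whole domains, make it likely that a lower score stands for a less compact domain, but this is not stated for the scores per gene and no comparison below rests on it. No spread between replicates can be attached to a score, no p-value was computed, and pairs are not replicates of a condition. The values below are therefore descriptions of 1 deposited set of scores, and the error given is the spread over pairs. The score of SWR1 itself, which this strain lacks, was -2.13 and cannot measure folding of that gene. Where a gene has a near-identical copy, how the reads were assigned between the copies is not given, so its score is uncertain.

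Upstream and downstream genes had nearly equal scores over all tandem pairs. The median score was -0.068 for upstream members and -0.0622 for downstream members, with an SD over pairs of 0.537 for upstream and 0.504 for downstream members. The median upstream minus downstream difference was 0.0027, with quartiles of -0.452 and 0.419, and the mean difference was -0.0162 ± 0.706 (SD over 1707 pairs). The upstream gene had the higher score in 857 of 1707 pairs, or 50.2% (95% Wilson interval 47.8% to 52.6%, which takes the pairs as independent although runs share genes). Over all 3509 neighbouring pairs of any orientation, the left gene was the higher one in 50.2%, which is the background for a choice of sides unrelated to transcription. By side rather than by transcription, the left gene was the higher one in 48.7% of tandem, 51.7% of convergent and 51.7% of divergent pairs.

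The median difference was near 0 on each strand and each arm, with small values of opposite sign on the strands. W pairs had a median difference of -0.0264, with the upstream gene higher in 48.9%, and C pairs had one of 0.0278, with the upstream gene higher in 51.6%. The Wilson intervals of these shares, which take the pairs as independent, were 45.6% to 52.2% for W pairs and 48.2% to 54.95% for C pairs. The difference between the strands was not tested. Left arms had a median difference of 0.0139 (706 pairs) and right arms one of -0.0038 (1001 pairs). Across the 16 chromosomes the median ran from -0.082 on chromosome VII (169 pairs) to 0.152 on chromosome XIII (137 pairs). It lay above 0 on 9 chromosomes and below 0 on 7, and on every chromosome the quartiles of the pairs spanned 0.

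**Figure D1:**
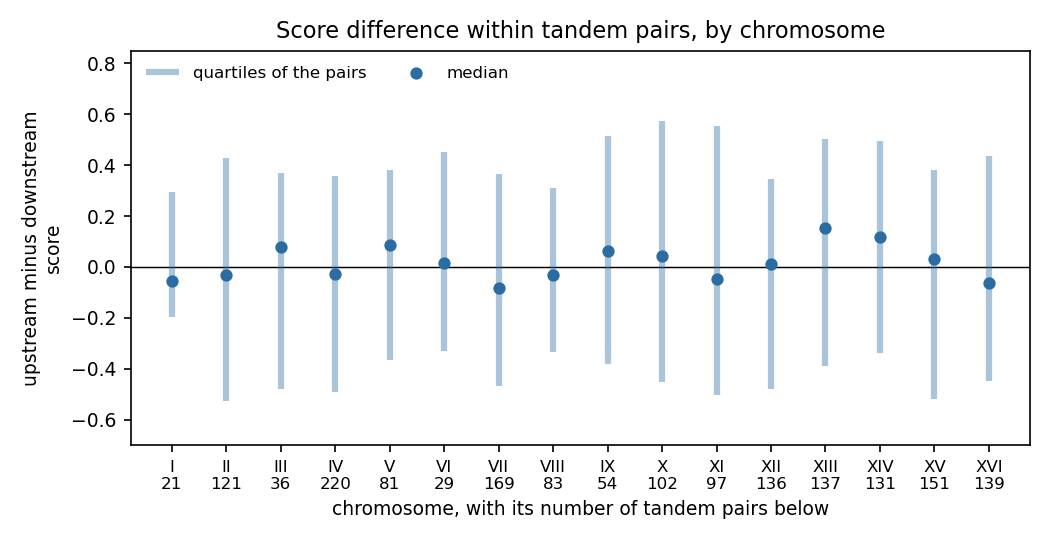
Upstream minus downstream compaction score (vertical axis, in the authors' score units) for the tandem pairs of each chromosome (horizontal axis, with the number of pairs under each name). Points are medians and bars span the quartiles of the pairs; the medians lie between -0.082 and 0.152 and every bar crosses 0.

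Although there was no net offset, the members of single pairs often differed widely. The median absolute difference was 0.441 in tandem pairs, with quartiles of 0.201 and 0.757, against 0.405 in convergent and 0.399 in divergent pairs. A difference of at least 1 was found in 232 tandem pairs (13.6%), close to the background of 13.5% of all neighbouring pairs, and in 13.9% of convergent and 13.04% of divergent pairs. In these 232 tandem pairs the upstream gene was the lower member in 125 and the higher member in 107. At a difference of at least 2 the upstream gene was the lower member in 14 of 22 pairs. The large differences came mostly from a low score of 1 member: the lower member was in the bottom quartile of all scores, below -0.336, in 205 of 232 pairs, whereas the higher member was in the top quartile, above 0.248, in 137. The shorter member was the lower one in 154 of the 223 pairs with both lengths.

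The score of a gene told little about that of its tandem neighbour. Spearman's rho between upstream and downstream scores was 0.0687 over 1707 pairs and Pearson's r was 0.0822. It was 0.0687 in tandem pairs against 0.147 in convergent and 0.104 in divergent pairs, where members of the other kinds were taken from left to right. These correlations run across genes that share libraries and, in runs, members, and they are given as descriptions only. With the upstream gene in the bottom quartile of scores, the downstream gene had a median of -0.0954 (472 pairs), and with the upstream gene in the top quartile it had a median of -0.033 (391 pairs). The quartiles of the downstream gene were -0.411 and 0.171 in the first case and -0.305 and 0.244 in the second, so most of the spread remained within each class.

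Genes on the same strand but 2 numbers apart, which are just outside the rule, had a rho of 0.0144 (1796 pairs) and a median absolute difference of 0.427. A difference of at least 1 was found in 13.6% of adjacent tandem pairs, against 15.2% to 16.6% of same-strand pairs at each step from 2 to 10. From 3 to 10 numbers apart, rho on the same strand ranged from -0.0208 to 0.0615. The value for adjacent tandem genes was thus close to the highest value seen at larger steps, which was at 7 numbers apart.

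**Figure D2:**
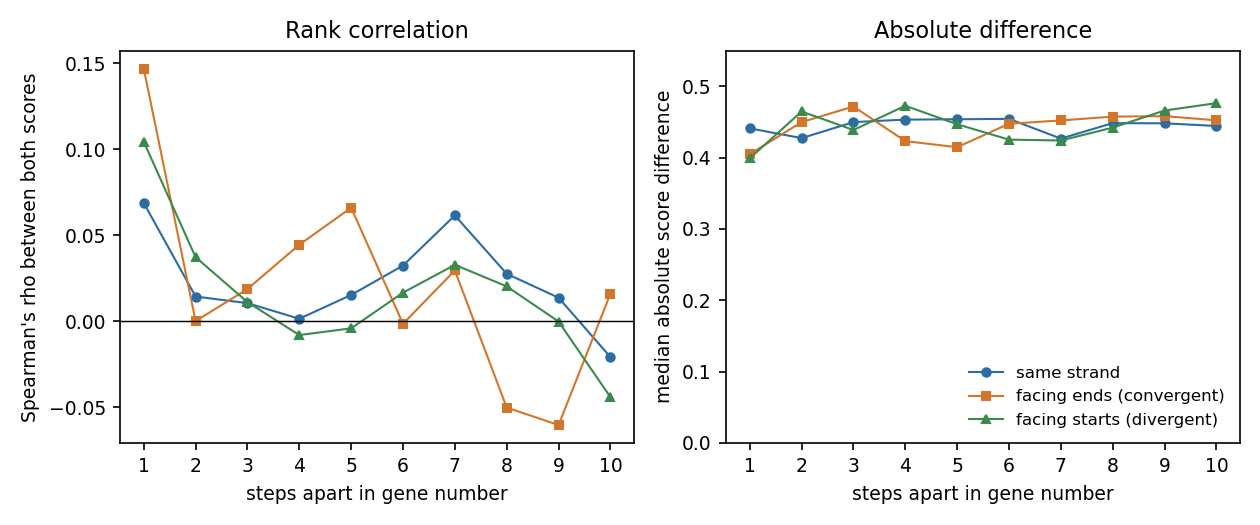
Spearman's rho (left) and median absolute score difference (right) between genes 1 to 10 numbers apart on an arm (horizontal axes), for same-strand genes, for genes whose ends face each other and for genes whose starts face each other. At 1 step rho was 0.0687 for same-strand, 0.147 for convergent and 0.104 for divergent genes, while the absolute difference stayed between 0.399 and 0.477 throughout.

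Tandem pairs leaned to low scores. Both members were in the bottom quartile of scores in 146 tandem pairs (8.55%), against 6.47% of convergent and 5.36% of divergent pairs, with a background of 7.21% of all neighbouring pairs. Both members were in the top quartile in 97 tandem pairs (5.68%), against 8.59% of convergent and 9.66% of divergent pairs, with a background of 7.44%. The median score was -0.0622 for the 2747 genes in a tandem pair and 0.00155 for the 1872 scored genes in none. This gap was small beside the SD over genes, which was 0.526 for genes in tandem pairs and 0.553 for the others.

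The same order appeared when genes were sorted by the arrangement of both neighbours. Genes with a tandem neighbour on both sides had a median of -0.0763 (667 genes), whereas genes with a divergent neighbour at the start and a convergent neighbour at the end had one of 0.0094 (736 genes). Genes with a divergent neighbour at the start and a tandem one at the end had a median of -0.0574 (602 genes), and those with a tandem neighbour at the start and a convergent one at the end had -0.0436 (675 genes). Ribosomal protein genes, which had the lowest scores of the gene groups described below apart from the lone histone variant gene, were 16 of the 667 and 23 of the 736. Without them the medians were -0.0567 with tandem neighbours on both sides and 0.0228 with a divergent and a convergent neighbour. The median coding length was 1366.5 bp with tandem neighbours on both sides and 1293 bp with a divergent and a convergent one.

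Tandem genes followed each other in runs, which allowed a gradient along a transcribed direction to be looked for. There were 633 runs of 2 genes, 246 of 3, 94 of 4, 45 of 5 and 22 longer ones, 9 genes being the longest. The median score was -0.0626 for first genes (1040), -0.0763 for inner genes (667) and -0.0587 for last genes (1040), with quartiles near -0.36 and 0.23 for first and last genes. In runs of at least 4 genes these medians were -0.0579, -0.0585 and -0.0855. The first gene of a run was higher than the last in 213 of 407 runs of at least 3 genes (52.3%) and in 82 of 161 runs of at least 4 (50.9%). No gradient was therefore detectable from these medians.

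The longest run lay on the C strand of chromosome XIV (sacCer3, chrXIV:713023-734069). From its upstream end it held BIO4 and BIO5, which act in biotin synthesis and uptake of its precursors, with scores of 0.883 and 0.825. HOL1, a transporter gene, had 0.108, and the ribosome biogenesis genes ESF2 and NOG2 had 0.402 and -0.639. POP2, a subunit of the Ccr4-Not deadenylase, had 0.278. BRE5, a cofactor of a deubiquitinase, had -0.621, the lysine synthesis gene LYS9 had 0.326 and MSO1, which acts in secretion, had -0.0142. Scores alternated in sign along the second part of this run, and neighbours differed by up to 1.04 (ESF2 to NOG2).

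The longest W runs held 7 genes, and there were 4 of them. In the run from SRF1 to PCL2 on chromosome IV (chrIV:222427-235853) all 7 scores were below 0, and the ribosomal protein gene RPP1B stood apart at -1.80 between LYS21 at -0.259 and YDL129W at -0.393. In the run from STH1 to QDR1 on chromosome IX (chrIX:117992-136108), QDR2 and QDR1, which encode paralogous multidrug transporters, lay next to each other at 0.925 and -0.885. The run from PIN2 to TFC7 on chromosome XV held scores from -0.684 to 0.528, and the run from PIS1 to CLB2 on chromosome XVI scores from -0.341 to 0.387. CLB2, a mitotic cyclin gene, was at 0.0895 at the downstream end.

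**Figure D3:**
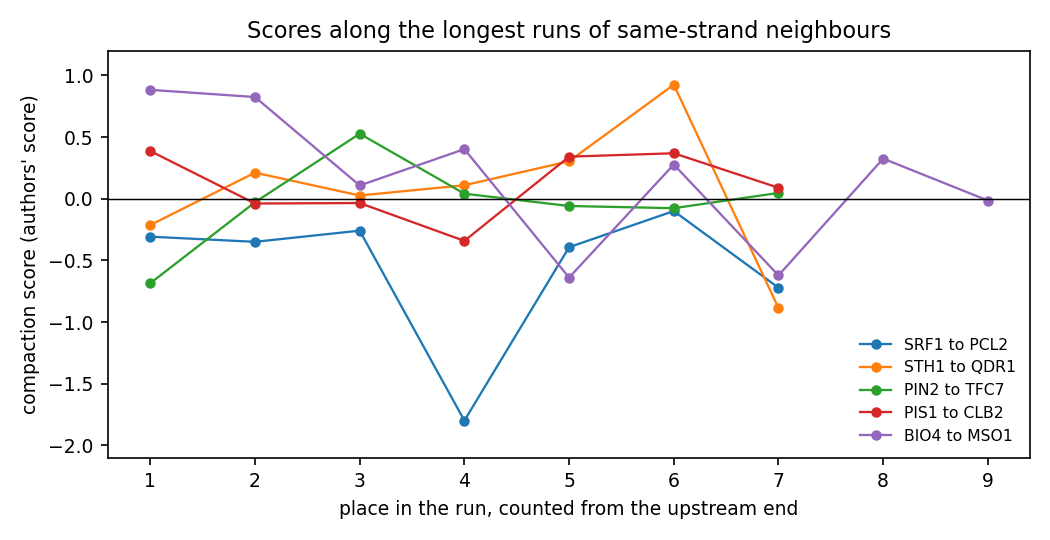
Compaction score (vertical axis, the authors' units) of each gene along the longest tandem runs, by place from the upstream end (horizontal axis). Each line joins the genes of 1 run; no run shows a steady slope, and single genes such as RPP1B at -1.80 stand apart from both neighbours.

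In the 6 pairs with the most negative difference the upstream gene was always in the bottom quartile of scores. The downstream gene was in the top quartile in all of them but YLL066C with YLL067C. Choosing pairs by a large difference makes such positions likely. AIF1, which encodes a homologue of the apoptosis-inducing factor, was at -2.84 upstream of the mannitol dehydrogenase gene MAN2 at 1.01, a difference of -3.85 (chrXIV:774792-778738). An absent gene can carry a low score, as SWR1 does in this strain. Whether AIF1 and MAN2 are present in this W303 strain as in the sacCer3 build was not checked, so this difference is uncertain. YLL066C was at -3.13 upstream of YLL067C at 0.154, a difference of -3.28, with an annotated protein-coding gene between them. Both are 3717 bp long, lie within the first 9836 bp of chromosome XII and have close copies at other chromosome ends, so these scores are uncertain. YCH1, a phosphatase gene of 447 bp, was at -2.23 upstream of ADE3, a one-carbon metabolism gene of 2841 bp, at 0.627 (chrVII:905237-908774).

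PUS9, which encodes a pseudouridine synthase, was at -0.51 upstream of BSC1 at 2.31, the highest score of any gene in a tandem pair. SNF6, which encodes a subunit of the SWI/SNF remodeler, was at -1.50 upstream of RIM4, a meiotic regulator, at 0.919. RPL37A, a large ribosomal subunit gene, was at -1.68 upstream of EMG1, a ribosome biogenesis gene, at 0.687. The spacer was 250 bp between YCH1 and ADE3 and 343 bp between RPL37A and EMG1.

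In the 6 pairs with the most positive difference the downstream gene was always in the bottom quartile of scores. This position too is made likely by choosing pairs by their difference. HSP82, which encodes the inducible Hsp90 chaperone, was at 0.996 upstream of CIN2, a tubulin folding factor gene, at -2.40, a difference of 3.39 over a spacer of 237 bp (chrXVI:95372-98625). ERG6, a sterol methyltransferase gene, was at 0.0261 upstream of MRPL39 at -3.01. MRPL39 encodes a mitochondrial ribosomal protein and is only 213 bp long. The glycerol kinase gene GUT1 was at 0.705 upstream of RPL8A at -1.70, and UFD1, which encodes a cofactor of Cdc48, was at 0.0376 upstream of SCM4 at -2.34.

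TIR1, which encodes a cell wall mannoprotein, had the highest upstream score of all tandem pairs (1.90), beside the proteasome gene PRE1 at -0.505. A tRNA gene lies in the 1822 bp between TIR1 and PRE1. The sixth pair was YEL1, a guanine nucleotide exchange factor gene, at 0.391 upstream of IAI11 at -1.97, with an annotated protein-coding gene between them.

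**Figure D4:**
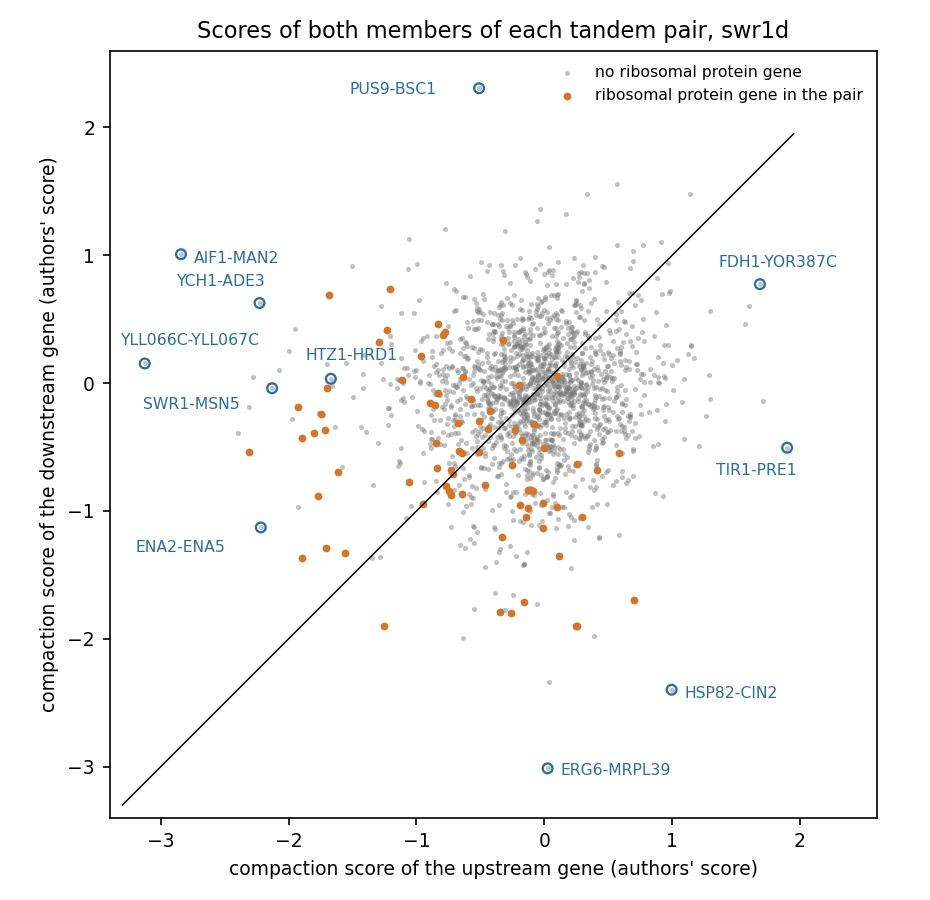
Compaction score of the upstream gene (horizontal axis) against that of the downstream gene (vertical axis) for all 1707 tandem pairs, in the authors' score units. Each point is a pair, orange points hold a ribosomal protein gene, ringed points are named and the line marks equal scores; the cloud is nearly round (Spearman's rho 0.0687), with AIF1-MAN2 (-3.85) and HSP82-CIN2 (3.39) farthest from the line.

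Few pairs had both members far from the centre on the same side. The lowest pair mean was that of ENA2 and ENA5, sodium pump genes of 3276 bp each that are near-identical copies, at -2.22 upstream and -1.13 downstream (chrIV:527422-534582). RPL11B was at -1.90 upstream of MRP13, a mitochondrial ribosomal protein gene, at -1.37, and YBR190W was at -1.71 upstream of RPL21A at -1.29. The highest pair mean was that of SRL1, a mannoprotein gene, at 1.14 with YOR248W at 1.48. FDH1, which encodes formate dehydrogenase, was at 1.69 with YOR387C at 0.774. DEP1, a subunit gene of a histone deacetylase complex, was at 1.599 with the cysteine synthesis gene CYS3 at 0.607, and the spore wall chitin deacetylase genes CDA1 and CDA2, with an annotated protein-coding gene between them, were at 0.567 and 1.56. YOR248W and YBR190W are not listed in the gene table, so their positions, and whether they are separate from their neighbours, were not checked.

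Cytosolic ribosomal protein genes, which are among the most transcribed genes of growing yeast, were low in either position, while their neighbours were much closer to the rest. Of 112 scored ribosomal protein genes, 60 stood in tandem pairs. Their scores ran from -2.31 (RPS22B) to 0.103 (RPL24B) with a median of -0.875, and 59 of the 60 were below 0. The median of all 4619 scored genes was -0.0376. In the 38 pairs with the ribosomal protein gene upstream, the median was -0.850 for that gene and -0.199 for its neighbour, and the ribosomal protein gene was the lower member in 34. In the 34 pairs with it downstream, the median was -0.858 for that gene and -0.134 for its neighbour, and it was the lower member in 29.

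The neighbours of ribosomal protein genes were themselves somewhat low. The 71 neighbour genes had a median of -0.174, against -0.0489 for the 2616 other genes in tandem pairs. The lowest neighbours on the 2 sides were YBR190W at -1.71 and FYV1 at -1.77, which the gene table does not list. Whether they are separate from the ribosomal protein genes was not checked. Neighbours lay in the bottom quartile of scores in 16 of 38 pairs (42.1%) with the ribosomal protein gene upstream and in 10 of 34 pairs (29.4%) with it downstream. Over all 1707 tandem pairs this share was 27.1% for downstream members and 27.7% for upstream members, so the share for neighbours upstream of a ribosomal protein gene was close to that of all pairs. The median spacer was 442 bp in the first case and 606.5 bp in the second, and the part of spacer length in this gap was not tested.

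With a ribosomal protein gene upstream, the largest differences were those of RPL37A and EMG1 (-2.37), RPS26A and CDC55 (-1.95) and RPS22B and MDM30 (-1.77). CDC55, a phosphatase regulatory subunit gene, was at 0.737 beside RPS26A at -1.21. With a ribosomal protein gene downstream they included those of GUT1 and RPL8A (2.40) and PIL1 and RPL11B (2.15). PIL1, which encodes a main component of eisosomes, was at 0.258 beside RPL11B at -1.90. Of the 232 tandem pairs with a difference of at least 1, 28 held a ribosomal protein gene, which was the lower member in 27 of them. In 1 of the 28 both members were ribosomal protein genes, so the lower member was ribosomal of necessity. Such a difference was found in 42.1% of the 38 pairs with 1 such gene upstream and in 32.4% of the 34 with it downstream. Among the 1633 pairs without a ribosomal protein gene the share was 12.5%.

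Only 2 tandem pairs held ribosomal protein genes as both members. In 1 of them, RPL18B and RPS19B were at -1.25 upstream and -1.90 downstream (chrXIV:61958-64562). Leaving out all pairs with a ribosomal protein gene gave 1633 pairs with a median difference of 0.0088, a median absolute difference of 0.430 and a rho of 0.0533.

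Translation factor genes were also mostly below their tandem neighbours. The listed gene was the lower member in 19 of 27 pairs formed by 20 genes, with a median of -0.498 over the pairs for the listed genes and -0.110 for the neighbours. YEF3, a fungal elongation factor gene, was at -1.002 between RCK2 upstream at -0.110 and SSP120 downstream at 0.107. TEF1, which encodes elongation factor eEF1A and has a near-identical copy, was at -1.32 downstream of MRL1 at -0.356. EFT1 and EFT2, which encode the same elongation factor eEF2, had the same score of -0.498 to the last decimal. EFT1 was below both its neighbours, VPS17 at 0.0777 and BAG7 at 0.495, and EFT2 was below MUS81 at 0.0271.

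Ribosome biogenesis genes were the lower member in 33 of 55 pairs, with a median of -0.289 for the listed genes and -0.156 for their neighbours. NOP1, which encodes fibrillarin, was at -1.20 upstream of SLX5 at 0.308. Both pairs with 2 listed members had the downstream gene lower: DBP8 at -0.0922 with NMD3 at -0.404, and PWP1 at -0.0334 with NOP56 at -0.861. Genes of glycolysis and fermentation were the lower member in 10 of 15 pairs, but the median difference from the neighbour was small (-0.068). FBA1, the aldolase gene, was at -1.13 downstream of MPE1 at -0.390, and TDH3, the main glyceraldehyde-3-phosphate dehydrogenase gene, was at -0.731 downstream of PDX1 at 0.0206. Its paralogue TDH1 was at 0.579, above both PEP8 at -0.509 and IRC8 at -0.283.

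Hexose transporter and sensor genes showed the opposite order. The listed gene was the higher member in all 12 pairs with 1 listed member, 7 with it upstream and 5 with it downstream, and its median was 0.523 against -0.306 for the neighbours. HXT2, which encodes a high-affinity transporter, was at 0.674, with ANY1 upstream at -0.618 and CLU1 downstream at -0.266. HXT6 and HXT7, near-identical high-affinity transporter genes, were at 0.710 upstream and 0.609 downstream over a spacer of 3679 bp, and HXT7 stood above YDR341C at -0.546. The glucose sensor genes SNF3 and RGT2 were closer to 0, at 0.281 and 0.0839. Of the 11 genes, 4 were among the 8 scored genes nearest an arm end, and HXT8 was the lowest at -0.102.

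Genes of the phosphate regulon were the lower member in all 7 pairs with 1 listed member, with a median of -0.531 for the listed genes and 0.114 for the neighbours. PHO84, the high-affinity phosphate transporter gene, was at -0.639 upstream of TUB3 at 0.115. VTC4, a subunit gene of the vacuolar polyphosphate polymerase, was at -0.633 between RPC17 upstream at 0.114 and MAD3 downstream at -0.0562. PHO12, an acid phosphatase gene near a chromosome end, was above 0 at 0.279 but still below IMD2 at 0.611. Within the acid phosphatase pair, the phosphate-repressible gene PHO5 was at -0.308 upstream and the constitutive gene PHO3 at 0.197 downstream (chrII:427698-430951).

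Chaperone genes were the lower member in 7 of 22 pairs, with medians of 0.175 for the listed genes and -0.0302 for the neighbours. The Hsp70 genes SSA3 at 0.742 and SSA4 at 0.412 were above their neighbours. The ribosome-associated Hsp70 genes SSB1 at -0.946 and SSB2 at -0.730 were low, though SSB2 was above YNL208W at -1.12. Further Hsp70 genes, SSA2 at -0.0029, KAR2 at -0.208 and SSC1 at -0.267, lay between these. The Hsp90 genes also differed, with HSP82 at 0.996 and HSC82 at -0.939. Genes of the galactose regulon stood in 4 pairs, formed by GAL4 and GAL80, and were the lower member in 2 of them.

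**Figure D5:**
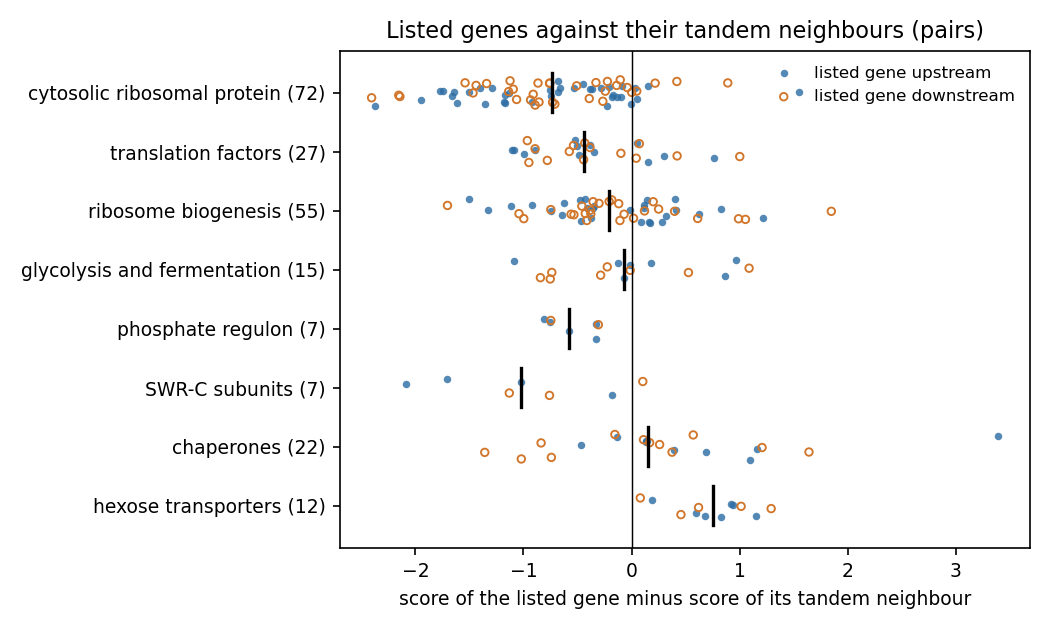
Score of a listed gene minus the score of its tandem neighbour (horizontal axis, the authors' units) for pairs with 1 member in a gene list (vertical axis, with the number of pairs). Filled blue points have the listed gene upstream, open orange points have it downstream and black bars are medians; ribosomal protein genes lie mostly left of 0 (63 of 72) and hexose transporter genes right of 0 (12 of 12) in either position.

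Genes of SWR-C and its substrate were the lower member in 6 of 7 pairs, and in 5 of 6 without SWR1, with a median difference of -0.889 for those 6. The 7 listed genes in tandem pairs, SWR1 among them, had a median of -0.746, against -0.222 for all 13 scored genes of the list. HTZ1, which encodes H2A.Z, was at -1.67 upstream of the ubiquitin ligase gene HRD1 at 0.0341 (chrXV:301380-303983), and its coding length is only 405 bp. ACT1, which encodes actin, a subunit shared with other complexes, was at -1.35 downstream of the Rab GTPase gene YPT1 at -0.223 (chrVI:53260-55986). ARP6 was at -0.746 upstream of RAX2 at 0.272, and SWC3 was at -0.152 downstream of CYS3 at 0.607. ARP4 at -0.122 was above SCP160 at -0.226. MSN5, which encodes a nuclear transport receptor and lies downstream of the deleted SWR1, had an ordinary score of -0.0396.

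Neighbours with related names differed more than other pairs by their median. Among 21 tandem pairs whose gene names share their letters, a set chosen after the values were seen, the median absolute difference was 0.677, against 0.440 for the 1686 other pairs. A difference of at least 1 was found in 6 of the 21 (28.6%) and in 13.4% of the others. A shared name does not prove a shared ancestor, so these values do not describe related genes as such. CDC39 with CDC50, an example of unrelated genes, is among the 6 pairs with a difference of at least 1. The others are ENA2-ENA5, QDR2-QDR1, DAL3-DAL7, YJU2-YJU3 and SAM3-SAM4. Whether the members of DAL3-DAL7, YJU2-YJU3 and SAM3-SAM4 are related was not checked. ALD2 and ALD3, stress-induced aldehyde dehydrogenase genes, were at 0.401 upstream and -0.495 downstream. In contrast, YPS3 and YPS1, which encode cell surface proteases, were at -0.229 upstream and -0.230 downstream, and DOG1 and DOG2, phosphatase genes, were at -0.165 upstream and -0.135 downstream.

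The distance between the members had little relation to their scores except at the shortest spacers. The spacer, taken from coding end to coding start in the R64 table, had a median of 411 bp (quartiles 291 and 627 bp) and ran from -447 to 8491 bp, and 7 pairs overlapped. Spearman's rho between spacer and absolute difference was -0.0296 over 1639 pairs. In the 73 pairs with spacers of 1 to 200 bp the median absolute difference was 0.611, the upstream gene was the higher member in 41.1% and the median difference was -0.254. In the classes from 201 bp upwards the median absolute difference lay between 0.416 and 0.459 and the median difference between -0.002 and 0.0439. The shorter member of the closely spaced pairs had a median coding length of 753 bp, against 928.5 to 1063.5 bp in the classes above, and the part of length in this result was not tested.

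The sign of the difference varied with the kind of gene lying between the members, in classes that were chosen after the values were seen. With a tRNA gene in the spacer (68 pairs) the upstream gene was the higher member in 64.7%, with medians of 0.131 upstream and -0.0865 downstream. The members of these pairs were closer to each other than those with no gene between, with a median absolute difference of 0.371 against 0.452 and a difference of at least 1 in 5.88% against 13.7%. With a protein-coding gene there (83 pairs) the upstream gene was the higher member in 57.8%, with a median difference of 0.0865 and a median absolute difference of 0.424. With a snoRNA gene there (16 pairs) the upstream gene was the higher member in 18.8%, that is in 3 pairs, with medians of -0.288 upstream and 0.0268 downstream and a median absolute difference of 0.443. Examples are EFM6 at -0.968 upstream of SSN8 at 0.328, and the ribosomal protein gene RPL27B at -1.93 upstream of TRS31 at -0.184. Such genes also stood upstream in RPS14A with SYP1 and RPL12A with POL5, and downstream in MPS2 with RPL7A. The ribosomal protein gene was the lower member in each of these pairs, and its part in this result was not tested. With no annotated gene between (1479 pairs) the upstream gene was the higher member in 49.6%, and the median difference was -0.0043. Transcripts outside the gene table, such as CUTs, were not considered.

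The direction of the difference went with unequal length of the members, the longer gene tending to have the higher score. Where the upstream gene was over 4 times longer, the median upstream minus downstream difference was 0.263 (68 pairs), and where it was 2 to 4 times longer it was 0.127 (264 pairs). Where the downstream gene was over 4 times longer the median was -0.281 (87 pairs), and where it was 2 to 4 times longer -0.0641 (241 pairs). Spearman's rho between the length ratio and the difference was 0.143 over 1639 pairs. The longer gene was the higher member in 874 of 1630 pairs of unequal length (53.6%), and in 52.5% without ribosomal protein genes.

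Short genes had more widely spread scores, and those of up to 500 bp also had clearly lower ones. Among genes in tandem pairs, those of up to 500 bp had a median of -0.463 and an SD of 0.770 (88 genes), those over 500 and up to 1000 bp a median of -0.111 and an SD of 0.643 (713 genes), and those over 2000 bp a median of -0.0473 and an SD of 0.402 (703 genes). The median absolute difference in tandem pairs was 0.672 with a shorter member of up to 500 bp and 0.280 with one over 2000 bp. Convergent pairs had 0.523 and 0.313 in these classes, and divergent pairs 0.666 and 0.307. The ribosomal protein genes of tandem pairs had a median coding length of 837.5 bp. Without them, tandem genes over 500 and up to 1000 bp had a median score of -0.061. Those over 1000 and up to 1500 bp had a lower one, -0.0893, so the level did not rise steadily with length. The number of read pairs behind each score is not known, so counting error and differences between genes cannot be told apart.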

How the data were processed

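Micro-C was performed by the authors on swr1Δ yeast. Per the labels, reads were processed with CASAVA 1.8.2 and Bowtie2 on build sacCer3. The authors deposited 1 compaction score per gene, whose formula, log base, length correction and use of replicates are not given in the sources used here. They also deposited counts of read pairs by distance and orientation, which were used only for the depth of the 2 libraries. There were 0 per-sample columns left unused.

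Scores were used as deposited. Tandem, convergent and divergent pairs were formed from the systematic identifiers. Positions and names came from the RefSeq gene table of assembly R64, the sacCer3 sequence. Its gene lengths run from start to stop codon with introns (97.3% of those of tandem genes are multiples of 3) and are called coding lengths. Medians, quartiles, shares and rank correlations were computed over pairs, with no test, because a score has no replicate values.

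The named pairs were the 6 largest differences in each direction, the 4 lowest and 4 highest pair means, the longest runs of each strand, pairs of ribosomal protein genes and the 3 largest differences with 1 such gene on each side, listed pairs, and pairs with both members in 1 of 10 gene lists. Pairs with 1 listed member, shared name stems and genes between were chosen after the values were seen. GAL10-GAL7 and CYC1-UTR1 had only 1 scored gene each. The members and lists were chosen with earlier results of these data known. A rule on pairs of at least 40% protein identity and the display of spacer sequences were not carried out here. Results on 1 named gene are not reported here. The functions were tested on simulated data. Figures were drawn with matplotlib 3.10.9, and the computations ran in Python 3.11.15 with pandas 2.3.3, scipy 1.17.1 and numpy 2.4.6.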

Additional observations from a re-analysis of the deposited data

How the results depend on the processing

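The median upstream minus downstream difference stayed between -0.0264 and 0.033 under 31 alternatives, 10 of them below 0, and the share of pairs with the higher score upstream between 48.9% and 52.4% under 30. Both remained within the 95% intervals of the values for all pairs (-0.0337 to 0.0445, and 47.8% to 52.6%). These intervals take the pairs as independent, although runs share genes. Most alternatives kept most of the same pairs, so staying within the intervals is no independent support. The alternatives were subsets by strand, arm, length, name, spacer content, overlap, distance from an arm end and single use of each gene, scores centred by length class, each chromosome left out, means, and 2 subsets chosen after seeing the data (without SWR1 and HTZ1, and members within 2 times of each other in length). The rank correlation ranged from 0.0398 to 0.0928 under 31 alternatives. The median absolute difference of 0.441 was 0.380 with both genes of at least 1000 bp, and the mean in its place was 0.541; under the other 29 alternatives it stayed within 0.413 to 0.464. Its excess over convergent pairs (0.0362) and over divergent pairs (0.042) stayed above 0 in the 7 subsets or centrings compared, and single use of each gene was not run for convergent and divergent pairs. The excess did not hold in every length class. With a shorter member over 2000 bp the median absolute difference was 0.280 in tandem, 0.313 in convergent and 0.307 in divergent pairs. The class over 500 and up to 1000 bp held 775 tandem pairs. There it was 0.4894 in tandem, 0.4874 in convergent and 0.49995 in divergent pairs. In the remaining length classes tandem pairs had the highest value. The share of tandem pairs past the threshold was 44.2% at 0.5 and 3.46% at 1.5, against 13.6% at 1. No paired analysis was possible because the scores hold 1 value per gene for 1 strain. For the same reason no replicate could be left out. The subset without pairs of at least 40% identical proteins was not run. The depth behind single scores is unknown, so the precision of any 1 difference cannot be stated.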

Other observations

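Same-strand genes 2 numbers apart were divided by whether the gene between them was scored. With the gene between not scored (393 pairs), Spearman's rho was 0.135, the median absolute difference was 0.413 and the first gene was higher in 51.1%. With the gene between scored (1403 pairs), rho was -0.0226, the median absolute difference was 0.433 and the first gene was higher in 52.0%. The median distance between the members was 1319.5 bp in the first set and 2307.5 bp in the second. The division was made after earlier results were known, and the part of this distance in the gap between the correlations was not tested.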
